A study of Mus musculus with 4 samples.

Results

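The genes of MHC class II antigen presentation were followed across the 4 libraries of a mouse macrophage series. They were taken by name from the deposited gene table: the chain genes H2-Aa, H2-Ab1 and H2-Eb1, the invariant chain gene Cd74, the peptide-editor genes H2-DMa, H2-DMb1 and H2-DMb2, and the transactivator gene Ciita. All 8 were found among 14936 genes. Class II molecules are pairs of an alpha and a beta chain that carry peptides from endosomes to the cell surface, where CD4 T cells read them. The invariant chain blocks the peptide groove during transport, and the DM heterodimer later exchanges its remnant for other peptides. CIITA, a coactivator that does not itself bind DNA, is the master regulator of these genes, and IL-4 is known to raise class II expression in B cells and macrophages.

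The cells were primary bone marrow-derived macrophages, grown from mouse bone marrow with recombinant M-CSF. They were either wild type (WT) or labelled as Phlpp1-deficient (KO; spelled Phkpp1 for the 12 h library), and both received IL-4 (20 ng/ml) with harvest after 12 h or 24 h. Each combination of genotype and time was 1 library, so no group has a replicate, and no library without IL-4 was analysed here. The labels give neither the mouse strain, age or sex, nor how the deficiency was made, nor whether the libraries came from separate animals, so p-values measure only the spread between these 4 libraries. Total counts lay between 36707999 and 41770309. Phlpp1 itself was higher under the KO label, at 42.9 CPM (read counts normalised to library size) at 12 h and 62.6 CPM at 24 h. The libraries labelled WT had 11.9 and 15.6 CPM. This is the reverse of what a loss of the transcript would give, but how the deficiency was made is not known. These gene-level counts therefore do not settle whether the labels hold. Directions are therefore those of the labels as given. The macrophage markers set for this check were all detected, among them Csf1r at 1926 to 2182 CPM and Cd68 at 2070 to 2215 CPM.

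The promoters of class II genes are known for a shared module in which RFX, CREB and NF-Y bind side by side and recruit CIITA. RefSeq promoter windows (GRCm38.p6, 250 bases before to 50 after the start of transcription) were at hand for 5 of the 8 members, H2-Aa, H2-Eb1, H2-DMa, H2-DMb1 and H2-DMb2. They are shown because the module recurs in genes that moved together in time and in genes that did not. The stretches below run from 125 to 26 bases before the start, 5′ to 3′ on the gene's own strand. Capitals mark TGATTGG, which holds the inverted CCAAT box that NF-Y is known to bind, and TGANG where it begins upstream of TGATTGG with a gap of 12 to 25 bases. This spacing was chosen after these promoters had been read.
H2-Aa (chr17:34287849-34287948, minus strand): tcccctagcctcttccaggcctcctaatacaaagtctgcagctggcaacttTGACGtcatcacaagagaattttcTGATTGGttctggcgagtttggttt
H2-Eb1 (chr17:34305742-34305841, plus strand): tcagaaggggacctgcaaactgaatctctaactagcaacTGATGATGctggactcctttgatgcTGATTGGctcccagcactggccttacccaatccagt
H2-DMb1 (chr17:34153066-34153165, plus strand): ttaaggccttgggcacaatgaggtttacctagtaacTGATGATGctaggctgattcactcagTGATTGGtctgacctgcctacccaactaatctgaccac
H2-DMb2 (chr17:34145124-34145223, plus strand): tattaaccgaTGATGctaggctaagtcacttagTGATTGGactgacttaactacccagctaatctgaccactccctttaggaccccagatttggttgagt
H2-Ob (chr17:34238780-34238879, plus strand): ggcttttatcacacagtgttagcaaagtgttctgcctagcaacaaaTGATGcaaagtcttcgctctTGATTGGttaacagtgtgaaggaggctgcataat

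Of the 5 members with a window, 4 held both TGATTGG and the spaced pair, searched on both strands, and H2-DMa held neither in its 2 windows. Those lie at upstream starts of H2-DMa, while 2 of its 3 protein-coding transcripts in GENCODE M21 begin further downstream, at 34135628 and 34135654, where no window was searched. In H2-Aa the TGATTGG began 50 bases before the start, in H2-Eb1 61, in H2-DMb1 63 and in H2-DMb2 92, with gaps of 19, 20, 21 and 18 bases to the first TGANG of the pair. These distances hold for the RefSeq starts. In GENCODE M21 the gene H2-DMb1 begins at 34153072, inside the stretch shown, and H2-DMb2 at 34143307, upstream of it. Over 32851 mouse promoter windows, 7.82% held TGATTGG and 0.545% held the pair. H2-Ob, a chain of the DM inhibitor DO and not a member, is shown because it carried the same pair at a gap of 15 bases while it had only 6 to 19 counts in a library. The letters are thus shared by H2-Aa and H2-Eb1, called for time below, by H2-DMb1, which was not, and by genes with hardly any reads, and a match is a description of sequence, not of binding.

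**Figure D1:**
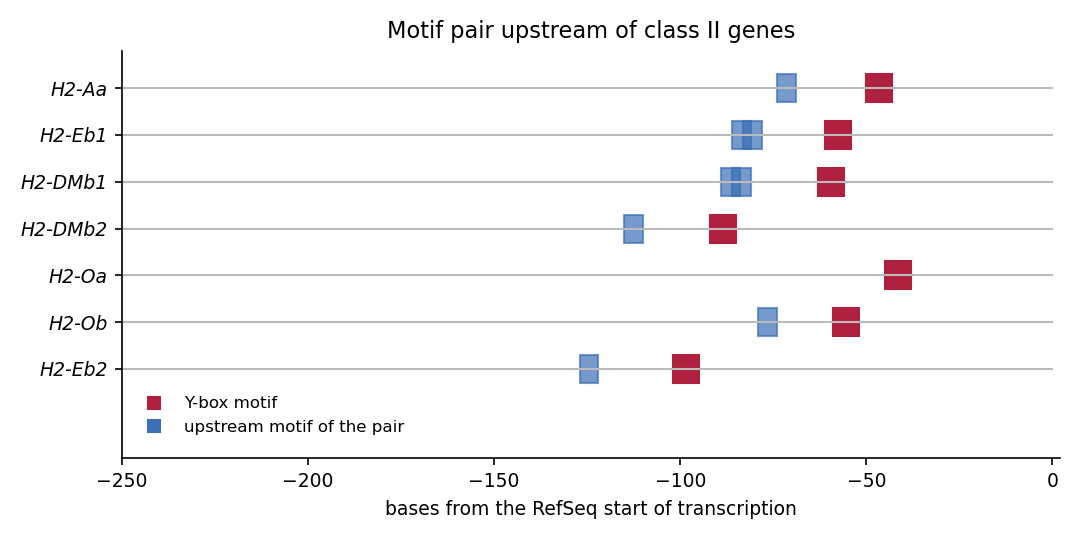
Positions of the Y-box motif (TGATTGG, red) and of the upstream motif of the spaced pair (TGANG, blue) before the RefSeq start of transcription, in bases on the x axis, for the members H2-Aa, H2-Eb1, H2-DMb1 and H2-DMb2 and 3 other class II chain genes. The red box lies 45 to 102 bases before the start in all 7 genes, and H2-Oa has no blue box.

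Cd74 was the most abundant member on the authors' FPKM scale, which divides counts by gene length and library total. Its FPKM ran from 749 to 1575 across the 4 libraries. The alpha chain gene H2-Aa followed at 231 to 440 FPKM and its beta chain partner H2-Ab1 at 209 to 390, ranges that overlap, with H2-Aa the higher in every library. H2-Eb1, the beta chain gene of the I-E molecule, stood at 100.1 to 176 FPKM and H2-DMb1, the beta chain gene of DM, at 41.8 to 52.9. Ciita, a regulator with few transcripts, had 2.19 to 3.89 FPKM, and H2-DMb2, the second DM beta gene, had 0.381 to 0.889. No ranges of neighbours in this order overlapped except those of H2-Aa and H2-Ab1. H2-DMa, the alpha chain gene of DM, was listed at 6.01 to 7.73 FPKM, but the length behind that value was 8325 bases against 3448 exonic bases in GENCODE M21. Its place in the order rests on that length, since its CPM of 51.4 to 62.8 was close to the 54.3 to 66.3 CPM of H2-DMb1. The lengths behind H2-Aa, H2-Ab1 and H2-Eb1 were 1128, 1193 and 1669 bases, against 3798, 2568 and 1944 exonic bases. The order of the chain genes and the gaps between their ranges therefore rest on the lengths used as well.

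Between 12 h and 24 h of IL-4, the genes for the class II chains, the invariant chain and the transactivator rose, with higher values at 24 h in the WT pair of libraries and in the KO pair. Of 7 members tested, 5 were called higher at 24 h and 0 lower by edgeR's quasi-likelihood test with genotype in the model, while of all 10993 genes tested 0.955% were called higher, 1.13% lower and 2.08% either way. The median time fold of the 7 was 0.70 on the log2 scale, beside 0.00 over all genes tested.

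H2-Aa stood at 288 CPM in WT at 12 h, 436 in WT at 24 h, 255 in KO at 12 h and 488 in KO at 24 h. Both 24 h libraries lay above both 12 h libraries, and the KO pair spanned the widest gap. The time fold of H2-Aa, as log2, was 0.77 (SE 0.07, edgeR adjusted p = 1.72e-08).

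H2-Ab1, whose product pairs with that of H2-Aa to form I-A, had 272 CPM in WT at 12 h, 399 in WT at 24 h, 243 in KO at 12 h and 459 in KO at 24 h. H2-Eb1 had 179, 267, 163 and 289.9 CPM in the same order. The order of the 4 libraries was the same in both genes as in H2-Aa, with KO at 12 h lowest and KO at 24 h highest. Their time folds were 0.73 (SE 0.07, edgeR adjusted p = 6.29e-08) and 0.70 (SE 0.07, adjusted p = 9.05e-08).

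Cd74 stood at 1381 CPM in WT at 12 h, 2065 in WT at 24 h, 1035 in KO at 12 h and 2195 in KO at 24 h. Again the times did not overlap, and the library labelled KO at 12 h was the lowest by a wider margin than in the chain genes. The time fold of Cd74 was 0.83 (SE 0.07, edgeR adjusted p = 9.74e-09), between log2 ratios of 0.58 in the WT pair and 1.08 in the KO pair. That SE draws on spread shared across genes and does not cover the gap between these ratios.

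Ciita rose by less. Its level was 21.7 CPM in WT at 12 h, 29.0 in WT at 24 h, 28.0 in KO at 12 h and 37.5 in KO at 24 h, so WT at 24 h and KO at 12 h were close, and both 24 h libraries still lay above both 12 h libraries. The time fold was 0.42 (SE 0.10, edgeR adjusted p = 0.0220), or 1.34-fold, against 1.71-fold for H2-Aa and 1.78-fold for Cd74.

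**Figure D2:**
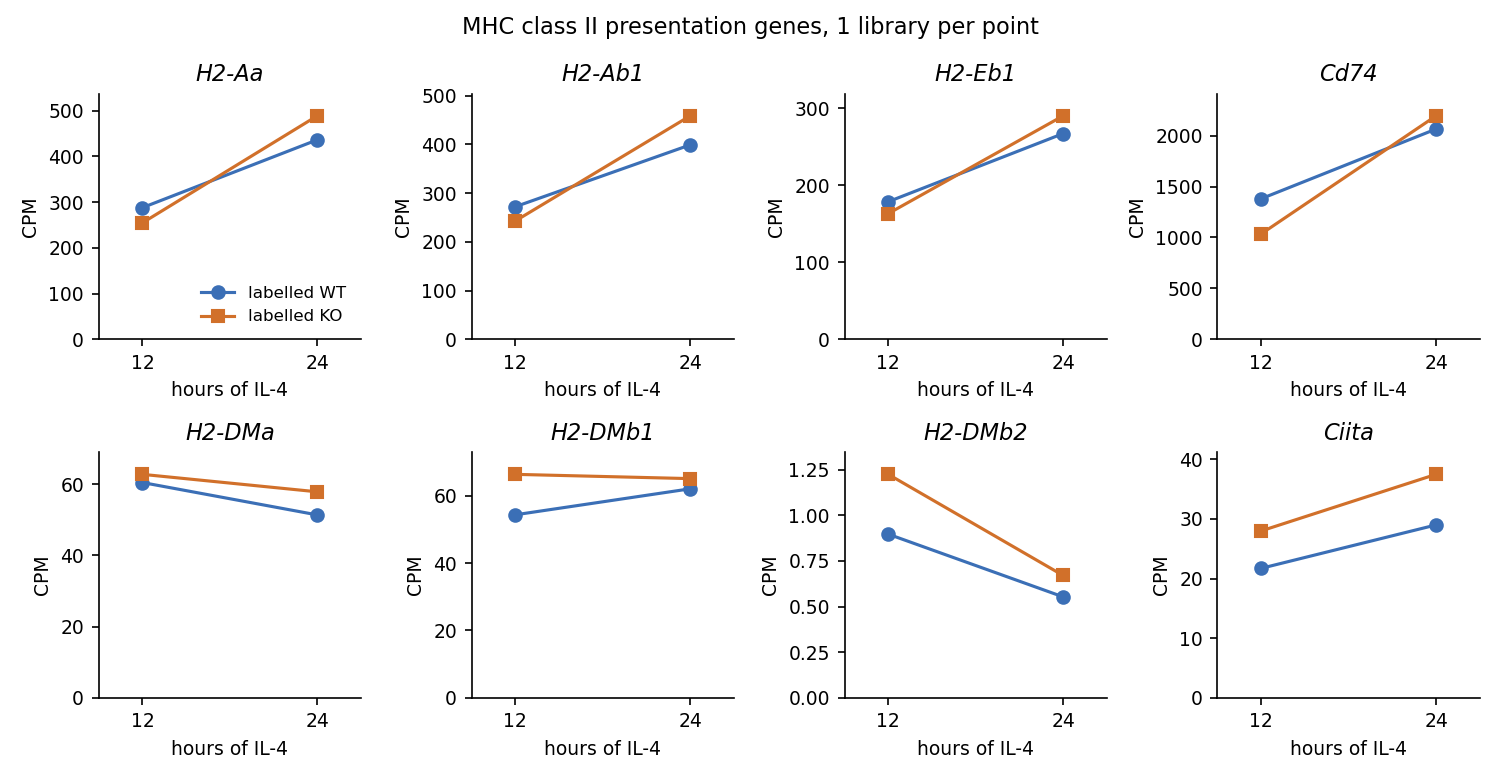
Level of each class II presentation gene in CPM (y axis, from 0, own scale per gene) against hours of IL-4 (x axis), with 1 library per point and a line joining the 2 libraries of a genotype label. H2-Aa, H2-Ab1, H2-Eb1 and Cd74 rise and cross, and Ciita rises in parallel lines with KO above WT.

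The calls for time rest on the additive fit of all 4 libraries. As edgeR shares spread across genes, a gene's SE and p-value do not show how far its own time fold differed between the genotype labels. DESeq2 on the same model called H2-Aa (adjusted p = 3.71e-13), H2-Eb1 (2.02e-11), H2-Ab1 (0.0302) and Cd74 (0.0302) but not Ciita (0.255). H2-Ab1 and Cd74 thus passed by far less there than in edgeR. Over the edgeR alternatives with all 4 libraries, the adjusted p of Ciita ran from 0.00794 to 0.999. Scaling by library totals also lost Ciita (edgeR adjusted p = 0.0802). When genotype was left out of the model, no gene of the whole table was called, whether all 4 libraries entered or any single one was left out. At an unadjusted p under 0.05, 4 members passed with all 4 libraries, 4 without WT at 12 h and 5 without each of the others. The time fold of H2-Aa stayed between 0.68 and 0.86 in those fits, while that of Ciita was 0.59 and 0.61 when the middle libraries, WT at 24 h and KO at 12 h, were dropped in turn, 0.25 on dropping WT at 12 h and 0.22 on dropping KO at 24 h.

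The DM genes were not called for time. H2-DMa had 60.5 CPM in WT at 12 h, 51.4 in WT at 24 h, 62.8 in KO at 12 h and 57.9 in KO at 24 h, with a time fold of log2 -0.18 (SE 0.09, edgeR adjusted p = 0.405). H2-DMb1 had 54.3, 62.0, 66.3 and 65.1 CPM in that order, with a time fold of 0.08 (SE 0.09, adjusted p = 0.795). The 4 libraries of each lay within a narrow band. H2-DMb2 was not tested: it had 37 counts in WT at 12 h, 20 in WT at 24 h, 50 in KO at 12 h and 25 in KO at 24 h, and reached 1 CPM in only 1 library. It held 0.892% to 1.85% as many counts as H2-DMb1 in a library. H2-DMb1 and H2-DMb2 are close copies, so reads that fit both cannot be told apart in gene counts, and the small H2-DMb2 values are uncertain for that reason. H2-DMa overlaps Brd2 on the other strand, H2-Eb1 overlaps Gm20513, Ciita overlaps Dexi, and whether the counting used strand is not given in the sources used here.

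Ratios of 2 genes within a library do not depend on scaling between libraries, and they show the same split. For each count of H2-Aa there were 0.946 counts of H2-Ab1 in WT at 12 h, 0.915 in WT at 24 h, 0.954 in KO at 12 h and 0.939 in KO at 24 h. H2-Eb1 gave 0.62, 0.612, 0.641 and 0.594 in that order. H2-Aa, H2-Ab1 and H2-Eb1 thus kept nearly fixed proportions while their levels changed. The DM alpha gene H2-DMa gave 0.21 counts per count of H2-Aa in WT at 12 h (exact 95% interval 0.201 to 0.219) and 0.118 at 24 h (0.112 to 0.124). In KO the values were 0.247 at 12 h (0.236 to 0.258) and 0.118 at 24 h (0.113 to 0.124). DM alpha transcripts therefore became scarcer relative to the chain gene under both labels. Cd74 gave 4.8, 4.74, 4.07 and 4.49 counts per count of H2-Aa in WT at 12 h, WT at 24 h, KO at 12 h and KO at 24 h, lowest in KO at 12 h (3.98 to 4.16). These intervals cover counting error only.

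Across both times, Ciita was the only one of the 7 tested members called for genotype, and it was higher in the libraries labelled KO. Over all genes tested, 4.18% were called higher, 5.34% lower and 9.52% either way (459 genes higher and 587 lower, against 515 and 324 with library totals, which move the median of all genes from 0.00 to 0.0546 on the log2 scale), so 1 call among 7 members is near the background. The KO over WT fold of Ciita was 1.29 at 12 h (1.18 to 1.41, exact 95% interval of counting error) and again 1.29 at 24 h (1.19 to 1.40). Its log2 genotype fold was 0.37 (SE 0.10, edgeR adjusted p = 0.0184). The genotype folds of H2-Aa (log2 -0.01, SE 0.07), H2-Ab1 (0.02, SE 0.07) and H2-Eb1 (log2 0.00, SE 0.07) were not called, nor were those of Cd74 (log2 -0.16, SE 0.07, adjusted p = 0.188), H2-DMa (0.11, SE 0.09) and H2-DMb1 (0.18, SE 0.09, adjusted p = 0.232). The median over the 7 was 0.02, beside 0.00 over all genes tested.

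The genotype call of Ciita depends on the tool and the model. DESeq2 gave the same fold without a call (adjusted p = 0.196, against 0.0112 to 0.857 over the alternatives), and so did edgeR with time left out (adjusted p = 0.353). With time and 1 library left out, the log2 fold was 0.57 when KO at 12 h was dropped (adjusted p = 0.0244, called), 0.59 for WT at 24 h (adjusted p = 0.178), 0.17 for WT at 12 h (adjusted p = 0.857) and 0.14 for KO at 24 h (adjusted p = 0.754). In such fits the time rise enters the genotype fold. Cd74 was called lower when low genes were kept in the test (adjusted p = 0.0318) and when KO at 24 h was dropped (log2 -0.73, adjusted p = 0.00547), while its adjusted p ran from 0.00547 to 0.977 over all alternatives.

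**Figure D3:**
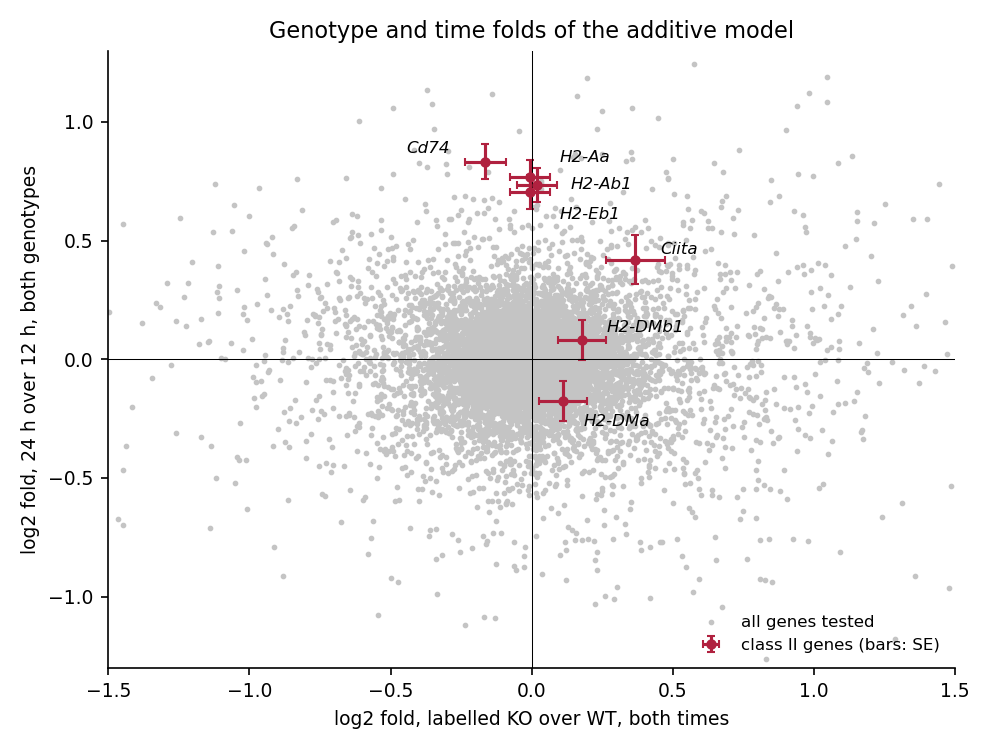
Log2 folds of the additive model, labelled KO over WT on the x axis and 24 h over 12 h on the y axis, for all genes tested (grey, with 79 genes outside the axes) and the 7 class II genes tested (red, bars are 1 SE). H2-Aa, H2-Ab1, H2-Eb1 and Cd74 sit together at time folds of 0.70 to 0.83, Ciita lies at 0.42 and to the right, and the DM genes lie near 0.

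The genotype ratio of the chain genes changed sides between the times. At 12 h the library labelled KO was below WT, at 0.885-fold for H2-Aa (exact 95% counting interval 0.862 to 0.908), 0.893-fold for H2-Ab1, 0.914-fold for H2-Eb1 and 0.75-fold for Cd74 (0.74 to 0.759). At 24 h it was above WT, at 1.12-fold for H2-Aa (1.097 to 1.145), 1.15-fold for H2-Ab1, 1.09-fold for H2-Eb1 and 1.06-fold for Cd74 (1.05 to 1.07). The differences exceed counting error, but each rests on 1 library on either side, and no test of the change is possible since it is what the additive model takes as its spread. As log2 ratios, the change from 12 h to 24 h was 0.50 for Cd74, 0.36 for H2-Ab1, 0.34 for H2-Aa and 0.25 for H2-Eb1. Over all 10993 genes tested, the 5th and 95th percentiles of such changes were -0.42 and 0.46, so that of Cd74 lay outside this span and those of the chain genes inside it. The span takes in genes near 1 CPM, whose counting error is larger than that of the chain genes (counting SE 0.0249 to 0.0317). It was not matched for level, so it does not show whether the changes of the chain genes are usual for genes as abundant. Ciita changed by 0.00, with the same ratio at both times, and H2-DMa and H2-DMb1 by 0.12 and -0.22.

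Seen by genotype label, the 24 h over 12 h fold of these 4 genes was larger in the KO pair, which was not tested. H2-Aa was 1.52-fold higher at 24 h in WT (exact 95% counting interval 1.48 to 1.55) and 1.92-fold in KO (1.87 to 1.97). Cd74 was 1.496-fold higher in WT (1.48 to 1.51) and 2.12-fold in KO (2.095 to 2.14), and Ciita 1.34-fold under both labels. With a rule of size of at least 1 on the log2 scale of CPM plus 1, Cd74 in KO was the only member past it in any of the 4 ratios between libraries (1.08), where 0.153% of genes were that far above 0 in KO (0.108% below, 0.261% either way) and 0.0725% in WT (0.0635% below, 0.136% either way). Between the genotypes, 0 members passed at either time, where 1.04% of genes did at 12 h (0.587% above and 0.451% below) and 1.05% at 24 h (0.568% above and 0.478% below).

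**Figure D4:**
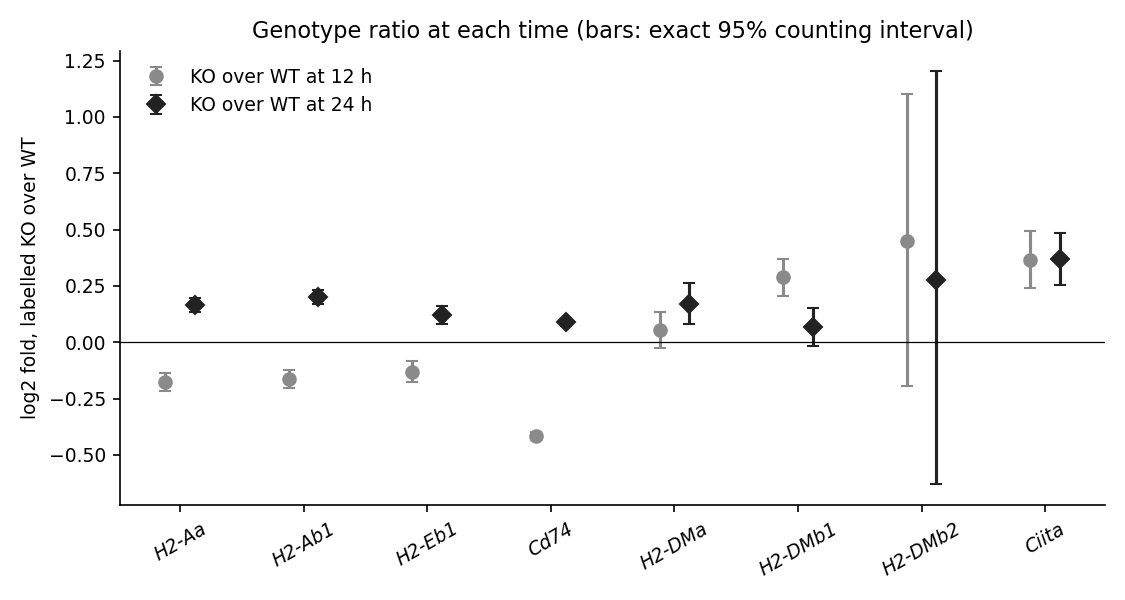
Log2 fold of the library labelled KO over WT (y axis) for each gene at 12 h (grey circles) and 24 h (black diamonds), with exact 95% counting intervals from 1 library a side. H2-Aa, H2-Ab1, H2-Eb1 and Cd74 are below 0 at 12 h and above 0 at 24 h, while Ciita is at 0.37 at both times.

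On chromosome 17 the members H2-DMa, H2-DMb2, H2-DMb1, H2-Ab1, H2-Aa and H2-Eb1 lie between 34119541 and 34316674 (GRCm38, GENCODE M21), a span of 197 kb that also holds genes of the class I pathway. Cd74 lies on chromosome 18 (60803848 to 60812652) and Ciita on chromosome 16 (10480059 to 10528418). Of the 6 other genes of the span in the table, 5 were tested, and 3 were called lower at 24 h by edgeR and 0 higher, against 1.13% of all genes called lower. These were the immunoproteasome subunit genes Psmb9 (log2 -0.44, SE 0.10, adjusted p = 0.00896) and Psmb8 (log2 -0.27, SE 0.07) and the peptide transporter gene Tap1 (log2 -0.32, SE 0.08). DESeq2 called 0 of them for time, with adjusted p from 0.0905 to 0.177. Tap1 had 132 and 111 CPM in WT and 102 and 77.8 CPM in KO at 12 h and 24 h. Neighbours in the same span thus differed in sign, with the class II chain genes above 0 and the class I peptide genes below 0. Tap1 (log2 -0.44) and Psmb8 (log2 -0.35) were also called lower in the libraries labelled KO, by DESeq2 too.

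**Figure D5:**
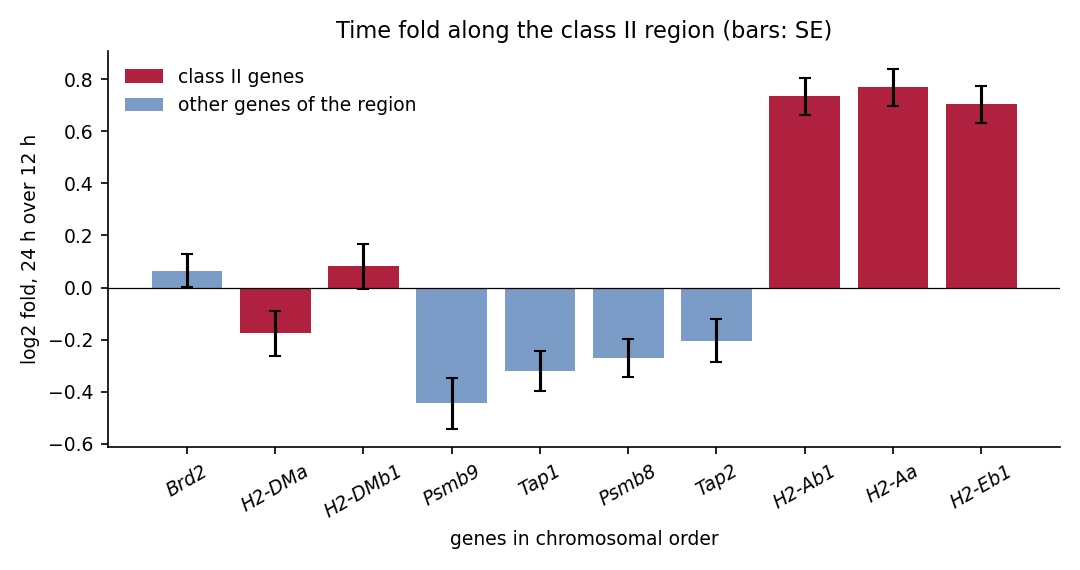
Log2 fold of 24 h over 12 h (y axis, bars are 1 SE) for the tested genes of the class II region in chromosomal order, class II members in red and other genes in blue. The 4 class I peptide genes lie between -0.44 and -0.20, and H2-Ab1, H2-Aa and H2-Eb1 lie between 0.70 and 0.77.

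The remaining class II chain genes found in the gene table were near absence. H2-Ea and H2-Ea-ps were also looked for and were not in it, so of I-E only the beta chain gene H2-Eb1 was seen. H2-Oa and H2-Ob, the chains of the DM inhibitor DO, had 4 to 15 and 6 to 19 counts. H2-Eb2 had 2, 4, 0 and 10 counts in WT at 12 h, WT at 24 h, KO at 12 h and KO at 24 h, where a count of 0 allows up to 3 counts, or 0.0735 CPM. None of the 3 reached the level for testing.

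The DNA-binding partners of CIITA were not called, where 9.52% of all genes tested were called for genotype and 2.08% for time. Of 12 genes for RFX, NF-Y, CREB and associated coactivators, 0 were called by edgeR for time or genotype, with 0 at an unadjusted p under 0.05 and 0 by DESeq2, and the list's median time fold was 0.04. Nfya, an NF-Y subunit gene, stood at 194 to 218 CPM. The RFX subunit genes Rfx5, Rfxap and Rfxank lay at 7.91 to 14.3 CPM.

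Among genes that act upstream of Ciita, Irf4, Jak2 and Socs1 were higher under the KO label. These were the 3 calls in that direction by edgeR among 12 tested, where 4.18% of all genes tested were called higher. For time, 0 were called (2 at an unadjusted p under 0.05, and 0 called by DESeq2), where 2.08% of all genes were. Irf4, a transcription factor induced by IL-4, was higher by 0.70 (SE 0.13, adjusted p = 0.000281), at 13.5 and 13.6 CPM in WT and 20.8 and 23.4 CPM in KO. Jak2, a kinase of the interferon-gamma receptor, was higher by 0.35. Socs1, a feedback inhibitor of JAK kinases, was higher by 0.50 in the fit, at 11.7 CPM in WT and 21.5 in KO at 12 h but 11.2 and 11.99 at 24 h, so the gap lay in the 12 h libraries. DESeq2 called 2 of these 3, Irf4 and Jak2. Interferon-gamma itself was close to absent, with Ifng at 0.122 to 0.388 CPM.

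Of 10 genes that process antigen and the invariant chain, 3 were called lower under the KO label, against 5.34% of all genes tested. At 24 h 1 was called higher, against 0.955% of all. Ctsh, a cysteine protease, was in both counts, with 415 and 509 CPM in WT and 353 and 427 CPM in KO at 12 h and 24 h (time fold 0.28, SE 0.06, edgeR adjusted p = 0.00713). Ctsd (log2 -0.21) and the asparaginyl endopeptidase gene Lgmn (log2 -0.20) were the other two. DESeq2 called only Ctsh of these. Ctss, the protease that makes the last cuts in the invariant chain, had time and genotype folds of 0.16 (edgeR adjusted p = 0.097) and log2 -0.15 (adjusted p = 0.054) and was not called.

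Genes for surface turnover and transport of class II were called in 1 case of 10 for genotype, near the 9.52% of all genes tested. For time, 0 were called (2 at an unadjusted p under 0.05, and 0 by DESeq2). The genotype call was the tetraspanin gene Cd82 (log2 -0.28, edgeR adjusted p = 0.0317), which DESeq2 did not call. Marchf1, the ubiquitin ligase that drives class II into degradation, stood at 65.6 and 57.0 CPM in WT and 72.8 and 69.8 CPM in KO. Among 7 costimulation genes, Pdcd1lg2 (1.09) and Icam1 (0.28, not called by DESeq2) were higher in the libraries labelled KO, against 4.18% of all genes tested. For time, 0 were called by edgeR or DESeq2 (2 at an unadjusted p under 0.05 in each). Cd86, a ligand of CD28, had 14.03 and 9.21 CPM in WT and 13.1 and 9.28 CPM in KO at 12 h and 24 h (time fold log2 -0.55, edgeR adjusted p = 0.0504).

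The profile of the chain genes and Cd74 over the 4 libraries was compared with that of every other gene with a mean of at least 10 CPM, as the Euclidean distance between log2 values centred on each gene's mean. The members H2-Aa, H2-Ab1, H2-Eb1 and Cd74 lay 0.0362 to 0.16 from their own mean, Ciita 0.559, H2-DMb1 0.768 and H2-DMa 0.952. As that mean was made from H2-Aa, H2-Ab1, H2-Eb1 and Cd74, their smaller distances are in part built in. The 5 nearest genes outside the members were Bex1 (0.192), Arl5c (0.245), the cystine transporter gene Slc7a11 (0.245), the lectin gene Clec4e (0.273) and the catalase gene Cat (0.274). Bex1 had 46.0 and 59.6 CPM in WT and 40.5 and 72.4 CPM in KO at 12 h and 24 h, in the same order of libraries as H2-Aa. Arl5c, Slc7a11, Clec4e and Cat did not share that order, as WT at 24 h was the highest library in each. Clec4e had 39.9 CPM in WT and 39.4 in KO at 24 h, and Cat had 657 and 598. Likeness over 4 libraries is a description, and other minimum levels or another template left 0 to 2 of these 5 among the nearest.

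Class II genes are most abundant in dendritic cells and B cells, so markers of both were set beside them. Of 9 dendritic cell markers in the table, 5 stayed under 1 CPM in every library, and Flt3 had 3 to 10 counts. Their summed level was 12.9 and 12.6 CPM in WT and 18.7 and 18.8 CPM in KO at 12 h and 24 h, most of it Batf3, which was called higher in KO (0.83). Zbtb46, a transcription factor of conventional dendritic cells, had 18 and 7 counts in WT and 19 and 64 in KO, and Clec9a had 22 and 22 in WT and 18 and 40 in KO at 12 h and 24 h. These were highest in KO at 24 h, like the chain genes, and so were Flt3 (10 counts there) and Dpp4 (13 counts there). Cd209a, Siglech and Itgae, with at most 10 counts in a library, were not highest there. Batf3 was highest in KO at 12 h, with 312 and 279 counts in WT and 612 and 457 in KO. The chemokine receptor gene Ccr7 was highest in WT at 12 h, with 161 and 132 in WT and 79 and 115 in KO (not called). Of 8 B cell markers, 6 stayed under 1 CPM, and the sum of 83.0 to 117 CPM was almost all Cd22, which was called lower in KO (log2 -0.32, edgeR adjusted p = 0.00627, and by DESeq2). Of 9 T and NK cell markers, 6 stayed under 1 CPM and the sum was 26.1 to 45.3 CPM, mostly Cd4, which edgeR called lower in KO (log2 -0.42, adjusted p = 0.00406) and DESeq2 did not (adjusted p = 0.0659). In bulk RNA, more cells of a type and more RNA per cell cannot be told apart, and the part of these cells in the class II levels was not tested.

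Other markers moved with the labels as well. Over all genes tested, edgeR called 4.18% higher and 5.34% lower for genotype, and 0.955% higher and 1.13% lower for time. Stromal markers summed to 90.9 and 108 CPM in WT and 149.9 and 181 CPM in KO, with 7 of 7 tested called higher in KO by edgeR (5 by DESeq2) and 1 at 24 h, Dcn (0 by DESeq2). Lum, the marker too low for testing, went the other way, with 13 and 12 counts in WT and 3 and 3 in KO. Neutrophil markers summed to 1044 and 950.0 CPM in WT and 790.3 and 675 CPM in KO, with 5 of 7 called lower in KO and 3 lower at 24 h. Of 10 macrophage markers, 5 were called lower and 1 higher in KO, and 3 lower and 1 higher at 24 h. The last was Cd14, an LPS coreceptor, at 43.0 and 63.9 CPM in WT and 27.4 and 42.7 CPM in KO. The part of these shifts in the class II values was not tested.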

How the data were processed

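Messenger RNA of mouse bone marrow-derived macrophages was sequenced in 4 libraries, grouped by their titles. The table deposited by the authors gives raw counts and FPKM for each gene symbol. HISAT2, StringTie 1.3.0, edgeR and mm10 are named in the submitters' processing notes. Which tool counted reads, against which annotation, is not given in the sources used here. FPKM as deposited equals counts over length and library total, with a relative deviation of at most 7.82e-14, and serves only to compare levels between genes.

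TMM scaling in edgeR 4.0.16 (R 4.3.3) turned counts into CPM. The 10993 genes reaching 1 CPM in 2 or more libraries entered edgeR's quasi-likelihood test of genotype and time in an additive model, two-sided, with Benjamini-Hochberg adjustment over all of them. Adjusted p under 0.05 is called. The model has 1 residual degree of freedom, and the common dispersion was 0.00602. With so little of its own, the spread used for a gene rests largely on that shared across all genes. The SE is the log2 fold over the square root of F. In counts simulated for time, 59 of 67 genes changed 1.5-fold and 67 of 67 changed 2-fold were recovered, with 8 calls among 10769 unchanged genes. For genotype, 57 of 67 changed 1.5-fold were recovered. Every simulated gene had the same dispersion of 0.006 and no difference between genotypes in its time change. The simulation therefore does not show how the test fares where genes differ in spread or change differently under the labels. Ratios of 2 libraries carry no test. Their exact 95% intervals (Clopper-Pearson, from the 2 counts) and the floor of 3 counts cover counting error only, as the reads carry no molecular identifiers.

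Positions are from GENCODE M21 and promoters from RefSeq. Members and lists were chosen with earlier results of these data known. All members were named. Of each further list, up to 4 called genes with a mean of at least 5 CPM and the largest fold were named, or else the most abundant. Of the genes this rule takes, 1 is not reported here. The other genes of lists named in the text were chosen after their values were seen. Alternatives were DESeq2 1.42.0, other scalings, filters, pseudocounts and model terms, and each library left out.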

Additional observations from a re-analysis of the deposited data

Results flagged for a closer look

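The genotype ratio of H2-Aa, H2-Ab1, H2-Eb1 and Cd74 was below 0 on the log2 scale at 12 h and above 0 at 24 h (labelled KO over WT), with opposite signs in the only libraries of each time. The change from 12 h to 24 h in the log2 ratio was 0.34 for H2-Aa, 0.36 for H2-Ab1, 0.25 for H2-Eb1 and 0.50 for Cd74. The difference was not tested, since each value rests on 1 library per genotype and time.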

How the results depend on the processing

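For genotype, the members called numbered 1 (Ciita) in the additive fit and 0 with DESeq2, 2 with no filter on low counts, 0 with time left out, and 0 to 1 with 1 library left out (Ciita without KO at 12 h, Cd74 without KO at 24 h). All genes called for genotype numbered 1046, against 514 with DESeq2, 259 with time left out and 146 to 576 with 1 library left out. For time, the members called numbered 5, against 4 with DESeq2 and with library totals and 0 with genotype left out (4 at an unadjusted p under 0.05) or 1 library left out. All genes called for time numbered 229, against 106 with DESeq2, 141 with library totals, and 0 with genotype left out (367 at an unadjusted p under 0.05) or 1 library left out (267 to 599 at that p). Fits without a factor pool its difference into the spread, and those of 3 libraries also have fewer samples. The genotype folds of H2-Aa and H2-Eb1, close to 0, turned to 0.0517 and 0.0527 with library totals and to 0.0379 and 0.0244 with time left out. With 1 library left out the log2 genotype folds ran from -0.51 to 0.43 for H2-Aa, -0.47 to 0.45 for H2-Ab1, -0.45 to 0.38 for H2-Eb1, -0.73 to 0.35 for Cd74 and -0.00387 to 0.23 for H2-DMa, and the time folds of H2-DMb1 from -0.0614 to 0.23. Of the log2 ratios recomputed between libraries, 141 moved by less than their counting interval and 9 by more. The number of members past the size rule was the same under every scaling, pseudocount and minimum tried. The number of members whose genotype ratio was higher at 24 h was 6 of 8 under every scaling and pseudocount tried (alternatives chosen after seeing the data). Those 6 include Ciita, whose change was only 0.00394 (counting SE 0.0873). The median change over all genes tested was -0.00701. The nearest profiles shared 1 of 5 genes with a minimum of 1 CPM, 2 with a minimum of 50 CPM and 0 with all tested members as the template. No paired analysis was possible because each group has 1 library and the labels give no replicate numbers. At this depth counting error is small for all members but H2-DMb2, and the lack of replicates limits the comparisons.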
